A study of Homo sapiens with 6 samples.

Results

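The genes described here encode the proteins of the mitochondrial ribosome that carry an MRPL or MRPS symbol. They were taken as every row of the gene table whose symbol is MRPL or MRPS followed by a number and at most 1 of the letters A, B or C, which left out pseudogenes and antisense transcripts. The rule found 78 of the 59248 symbols, 29 named for the small subunit (MRPS) and 49 for the large subunit (MRPL), and all 78 passed the filter on low values with 21055 genes in all. RNA abundance had been measured by bulk RNA sequencing of total RNA from Jurkat cells, a human T-cell leukemia line. Of the 6 libraries, 3 were labelled as overexpressing PDCD1 28 (OE), a splice form of the PD-1 receptor gene that keeps the first 28 bases of an intron, and 3 as carrying the vector (Vec). Both groups share the name Jurkat KO-1 in the growth protocol, which the labels do not explain, and neither a treatment nor a time is given. Nothing in the labels ties the 3 libraries of a group to separate cultures or clones, and p-values therefore measure how these libraries vary, possibly only technically.

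Mitochondrial ribosomes translate the few proteins encoded by mitochondrial DNA, all of them parts of the respiratory chain and ATP synthase. Their rRNAs come from mitochondrial DNA, but every protein is encoded in the nucleus, made in the cytosol and imported. The family is spread over many chromosomes without a common promoter, and some members share a promoter region with a neighbouring gene. Some members descend from bacterial ribosomal proteins and others were added during mitochondrial evolution. Systematic names begin with u or b for the former and m for the latter, but MRPS18A and MRPS18B, of bacterial descent, also carry m. The small subunit reads the mRNA and the large subunit forms the peptide bond and feeds the chain to the inner membrane.

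The libraries held 59911578 to 84220970 estimated counts each. Levels below are depth-normalised counts (CPM) with TMM library scaling. PDCD1 was at 14.6, 14.2 and 12.6 CPM in OE 1 to 3 and at 0.241, 0.223 and 0.222 CPM in Vec 1 to 3; gene-level counts do not separate its splice forms. Vec 2 stood apart from Vec 1 and Vec 3 (chi-square per degree of freedom over genes, taking 4 counts as 1 read, 12.9 and 14.3, against 2.50 to 2.79 for the other pairs of 1 group). Of 8 T-cell markers all were detected, CD3E at 396 CPM in OE and 415 CPM in Vec; TRBC1 rose, and CD2, CD3G, CD247 and LCK fell, CD2 by 2.57 (log2, edgeR adjusted p = 3.02e-06). Of the epithelial markers, EPCAM was at 0 in every library, KRT18 was at 0 in Vec and 0.141 CPM in OE, and KRT8 rose by 1.74 (edgeR adjusted p = 0.0104) at 1.11 against 0.331 CPM. The B-cell marker CD79A fell by 0.62 and MS4A1 was too low to be tested, and of the myeloid markers CD14 fell by 2.91 (0.153 against 1.16 CPM), LYZ was under 0.2 CPM in both groups and CD68 was not called. The part of such cells in the members' values was not tested.

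The family moved both ways. Of the 78 members, 40 passed the test (edgeR, adjusted p under 0.05), 14 higher and 26 lower in OE, and 38 did not pass. That is 51.3% of members, beside 46.1% of all genes tested (22.6% higher and 23.4% lower) and 60.3% of the 9886 genes whose mean level lies within the members' range. By direction, 17.9% of members were higher and 33.3% lower, beside 27.0% and 33.2% of the genes at similar levels. The members' median log2 fold change was -0.09, with quartiles of -0.25 and 0.05 and a range from -1.05 to 3.02, beside a median of 0.02 over all genes and -0.04 over genes at similar levels. Their median absolute log2 fold change was 0.21, smaller than the 0.31 of genes at similar levels. All 3 OE libraries lay outside the range of the 3 Vec libraries for 49 members, 16 above and 33 below, or 62.8% against 58.7% of all genes and 70.2% of genes at similar levels. In bulk RNA, fewer cells with a transcript and less RNA per cell cannot be told apart.

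Genes of both subunits moved both ways. Among the 29 small subunit genes there were 6 that rose and 10 that fell; their log2 fold changes had a median of -0.02 and ran from -0.73 to 0.45. Among the 49 large subunit genes there were 8 that rose and 16 that fell; their median was -0.11 and they ran from -1.05 to 3.02. The small subunit median stood 0.09 above the large subunit median, and this difference lay between 0.07 and 0.12 under the other tools, scalings and filters, the replicate block, the trend removal, the sorting by structure and with each library left out. The medians themselves depended on scaling, at 0.09 and -0.01 with total counts in place of TMM, which moved the median of all genes from 0.02 to 0.12, and at 0.03 and -0.06 with upper-quartile factors. With total counts 16 members were higher and 18 lower, and with upper-quartile factors 16 and 20. A symbol does not always give the place in the structure: MRPS18A and MRPS30 sit in the large subunit (mL66 and mL65), and MRPS36 is no longer counted as a ribosomal protein. Sorted by structure, 5 of 26 small subunit genes rose and 10 fell, and 9 of 51 large subunit genes rose and 16 fell, with both medians as before. Of the 46 members named with u or b (bacterial homologue), 7 rose and 18 fell (median -0.15). Of the 31 named with m, 7 rose and 8 fell (median -0.04). The risen members named with m include MRPS18A and MRPS18B, which descend from a bacterial protein.

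**Figure D1:**
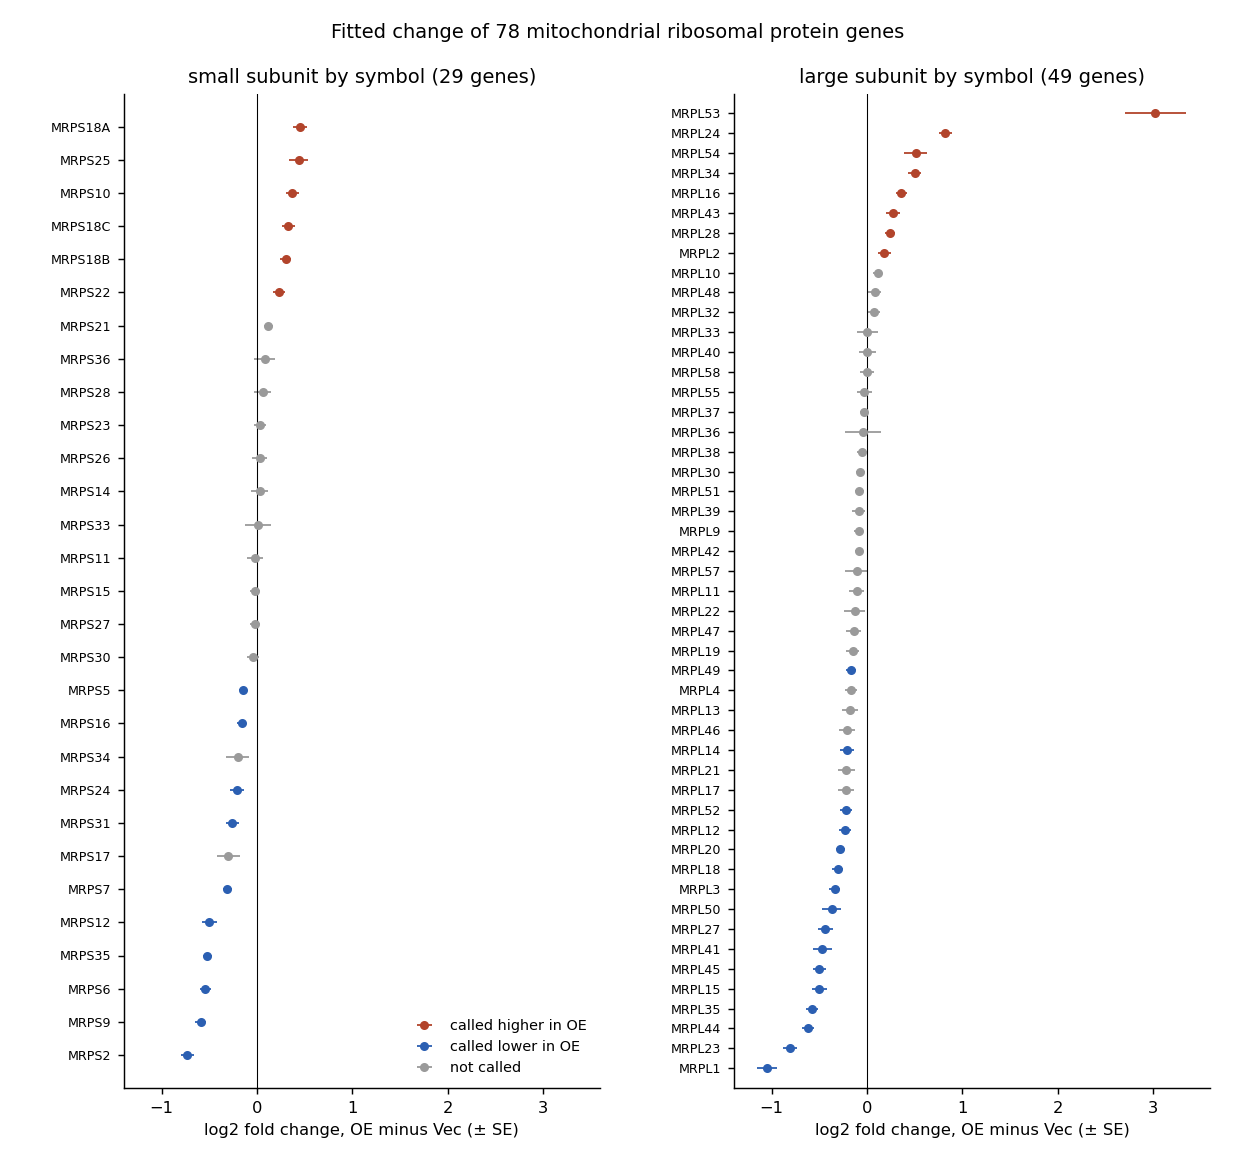
Fitted log2 fold change, OE minus Vec, of each of the 78 members (x axis; bars are standard errors), small subunit genes on the left and large subunit genes on the right by symbol, colored by call. Most members lie within 0.5 of 0; MRPL53 at 3.02 and MRPL1 at -1.05 are the farthest on either side.

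Promoter sequences are shown because the members have no common promoter and moved in both directions. RefSeq promoter windows of 300 bases (250 before and 50 after the start; GRCh38.p14) were matched for 69 of the 78 members. Short motifs known from promoters of nuclear genes for mitochondria were searched on both strands. The ETS core CCGGAAG, the kind of site that the GABP complex binds, was in 29 of 69 member windows (42.0%). It was in 10.3% of all 35116 promoter windows and 12.8% of the 22199 windows of coding genes. Against all windows, the YY1 motif AAGATGGC was in 20 (28.99%) against 2.89% and the NRF1 core CGCATGCG in 3 (4.35%) against 2.02%. The E-box CACGTG, which MYC and TFEB bind, was in 6 (8.7%) against 7.26%. In windows of coding genes the shares of YY1, NRF1 and E-box were 3.53%, 2.49% and 8.34%. The ETS core and the YY1 motif share the letters AAG and can run into each other over them, which happened in this orientation in 0 of the 69 member windows and 5 of all windows. At least 1 of the 4 was in 44 member windows (63.8%), beside 20.0% of all windows and 23.95% of those of coding genes. By call, the ETS core was in 9 of 13 windows of members called higher, 7 of 23 called lower and 13 of 33 not called. The 9 include MRPL53, which shares nearly all of its bases with CCDC142. Shares by call were not taken over genes outside the family, and a link between motif and direction was not tested. The YY1 motif was in 3 of 13, 7 of 23 and 10 of 33. A match is a description of the letters and not a bound site.

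The 120 bases before the RefSeq start are printed for 4 risen members that hold the ETS core there, for the most strongly fallen member of each subunit, MRPL1 and MRPS2, which do not, and for 2 members of the opposite kind, MRPL3, which fell and holds it, and MRPL24, which rose and does not. The RefSeq start is not always the outermost one: the windows of MRPL53, MRPL1, MRPS2 and MRPL24 lie inside the GENCODE gene spans given with the values, downstream of an earlier annotated start. Of the 4 risen members, MRPL53 overlaps CCDC142 over 1337 bases on the same strand, and CCDC142 fell by 0.77. Whether the MRPL53 rise reflects transcripts or the assignment of reads was not tested. Capitals mark CCGGAAG or its reverse complement CTTCCGG. The windows lie at chr6:43687792-43687911 (MRPS18A, minus strand), chr6:42217862-42217981 (MRPS10, minus), chr2:74472681-74472800 (MRPL53, minus), chr19:3762562-3762681 (MRPL54, plus), chr4:77862710-77862829 (MRPL1, plus), chr9:135500562-135500681 (MRPS2, plus), chr3:131502972-131503091 (MRPL3, minus) and chr1:156741089-156741208 (MRPL24, minus).
MRPS18A: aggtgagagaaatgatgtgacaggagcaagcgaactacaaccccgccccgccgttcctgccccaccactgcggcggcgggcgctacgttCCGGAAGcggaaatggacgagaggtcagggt
MRPS10: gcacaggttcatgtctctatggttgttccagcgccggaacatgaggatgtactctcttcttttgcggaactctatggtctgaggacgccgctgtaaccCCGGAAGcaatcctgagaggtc
MRPL53: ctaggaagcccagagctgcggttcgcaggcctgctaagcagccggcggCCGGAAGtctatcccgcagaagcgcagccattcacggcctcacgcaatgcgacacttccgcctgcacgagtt
MRPL54: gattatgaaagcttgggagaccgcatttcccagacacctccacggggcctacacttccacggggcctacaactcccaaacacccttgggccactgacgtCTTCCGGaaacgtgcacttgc
MRPL1: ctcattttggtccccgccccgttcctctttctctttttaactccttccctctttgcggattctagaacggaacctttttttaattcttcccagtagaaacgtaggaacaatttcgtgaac
MRPS2: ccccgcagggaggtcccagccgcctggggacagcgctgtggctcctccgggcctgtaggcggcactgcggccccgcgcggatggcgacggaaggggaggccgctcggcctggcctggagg
MRPL3: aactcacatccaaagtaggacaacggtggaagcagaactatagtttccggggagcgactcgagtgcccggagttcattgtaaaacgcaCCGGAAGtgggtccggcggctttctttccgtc
MRPL24: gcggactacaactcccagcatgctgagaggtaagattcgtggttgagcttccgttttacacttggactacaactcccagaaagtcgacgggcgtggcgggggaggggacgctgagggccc
The core begins 31, 22, 72, 21 and 32 bases before the start in MRPS18A, MRPS10, MRPL53, MRPL54 and MRPL3. In the whole 300-base windows, the risen members without the core were MRPL24, MRPL34, MRPS25 and MRPS18B, and the fallen members with it were MRPL3, MRPL20, MRPL27, MRPL52, MRPS12, MRPS16 and MRPS31.

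The large subunit held the widest changes in both directions. MRPL1 (uL1m; chr4:77862520-77952790, plus strand), a protein of the mobile stalk through which spent tRNA leaves the ribosome, was at 14.2, 15.5 and 15.001 CPM in OE 1 to 3 and at 30.0, 34.8 and 27.8 CPM in Vec 1 to 3. The OE libraries were close together and all well under the lowest Vec library. It fell by 1.05 ± 0.10 (log2 ± SE, edgeR adjusted p = 9.42e-05), 2.07-fold lower. MRPL23 (uL23m; chr11:1947278-1984522), which lines the exit of the peptide tunnel, was at 33.6, 34.6 and 36.6 CPM in OE and 60.1, 66.6 and 56.5 CPM in Vec, and fell by 0.81 ± 0.07 (edgeR adjusted p = 7.72e-05). MRPL44 (mL44), a mitochondria-specific protein whose mutation causes cardiomyopathy, was at 30.3, 28.6 and 26.8 CPM in OE and 44.1, 43.4 and 44.2 CPM in Vec, and fell by 0.62 ± 0.06 (edgeR adjusted p = 0.000153). The groups were separate for both genes, and Vec 2 did not stand out for MRPL44.

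MRPL35 (bL35m) fell by 0.58 ± 0.06, from 52.2 ± 2.17 CPM in Vec to 35.0 ± 1.37 CPM in OE (SD, n = 3 per group). MRPL45 (mL45), which ties the ribosome to the inner membrane, and MRPL15 (uL15m) each fell by 0.50, to 58.7 ± 3.79 and 33.4 ± 2.699 CPM from 82.9 ± 6.45 and 47.3 ± 3.95 CPM. The edgeR adjusted p-values of these 3 genes were 0.000138, 0.000879 and 0.00181. MRPL15 was at 30.8, 36.2 and 33.3 CPM in OE and 44.9, 51.8 and 45.2 CPM in Vec, the second library being the highest in both groups. The other fallen large subunit genes changed by -0.47 (MRPL41) to -0.17 (MRPL49). MRPL41 is the 1 called member whose sign depended on a setting: with the trend of fold change on GC content and length removed it stood at 0.01.

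Per kilobase of the longest annotated coding transcript, the highest levels in Vec were those of MRPL3 (96.4 CPM per kb), MRPL37 (94.7) and MRPL12 (86.8), all of the large subunit; the median member was at 32.9 CPM per kb. A gene with 1 long annotated transcript, such as MRPL42 at 7.02 CPM per kb, is set too low by this measure. MRPL3 (uL3m), which reaches from the surface towards the peptidyl transferase centre, was at 131, 135 and 125 CPM in OE and 157, 176 and 160 CPM in Vec, and fell by 0.34 ± 0.06 (edgeR adjusted p = 0.00194). MRPL12 (bL12m) forms the stalk that recruits elongation factors. It fell by 0.23 ± 0.06 (edgeR adjusted p = 0.0119; 0.0573 without OE replicate 1 and 0.0947 with total counts, where it was not called). MRPL37 (mL37) was at 144, 151 and 146 CPM in OE and 151, 153 and 145 CPM in Vec, with overlapping groups and a log2 fold change of -0.03 ± 0.04 (edgeR adjusted p = 0.623); with the GC and length trend removed it was called lower, at -0.15 (edgeR adjusted p = 0.0180). Of the 3, MRPL3 and MRPL12 fell and MRPL37 did not pass as first fitted; the difference between them was not tested.

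MRPL24 (uL24m; chr1:156737303-156741590, minus strand), another protein of the tunnel exit, rose most in the large subunit after MRPL53. It was at 43.0, 41.0 and 43.4 CPM in OE and at 22.7, 26.1 and 23.1 CPM in Vec. Each group was tight and the gap between them was wider than either. It rose by 0.82 ± 0.07 (edgeR adjusted p = 7.20e-05), 1.77-fold, and it overlaps no other coding gene. MRPL16 (uL16m), which helps hold tRNA, rose by 0.36 ± 0.06 (112 ± 7.08 against 87.1 ± 0.991 CPM; edgeR adjusted p = 0.00123). MRPL34 (bL34m) was at 48.9, 51.5 and 46.4 CPM in OE and 33.4, 37.0 and 33.1 CPM in Vec, and rose by 0.50 ± 0.07 (edgeR adjusted p = 0.000632), or by 0.30 with the GC and length trend removed. MRPL54 (mL54) was scarce, at 7.68, 7.67 and 7.87 CPM in OE and 5.31, 5.38 and 5.56 CPM in Vec. Its groups were narrow and separate, and it rose by 0.51 ± 0.12 (edgeR adjusted p = 0.0101), but with the GC and length trend removed it was at 0.34 and not called (adjusted p = 0.0558).

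**Figure D2:**
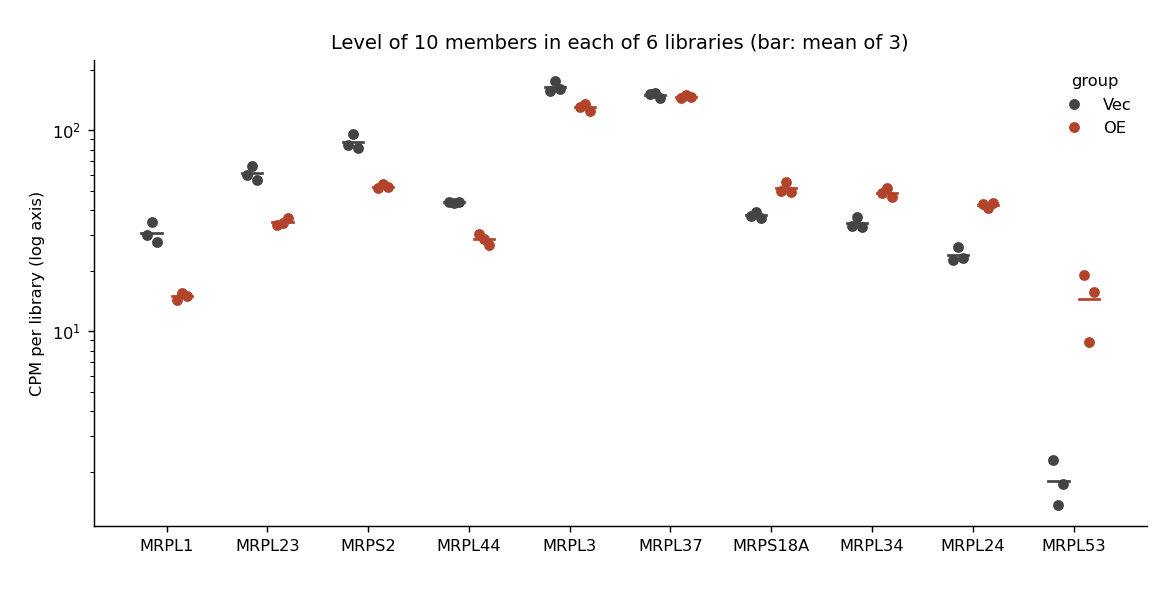
CPM (log axis) of 10 members in each of the 3 Vec (grey) and 3 OE (red) libraries; bars are means of 3. MRPL1, MRPL23, MRPS2, MRPL44 and MRPL3 are lower in every OE library, MRPL37 overlaps, and MRPS18A, MRPL34, MRPL24 and MRPL53 are higher in every OE library, with MRPL53 spread from 8.83 to 19.0 CPM in OE.

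MRPL53 (mL53; chr2:74471958-74473322, minus strand) had the largest fold change of the family and shares nearly all of its bases with another gene. Its estimated counts were 1236, 657 and 996 in OE 1 to 3 and 132, 110 and 117 in Vec 1 to 3, or 19.0, 8.83 and 15.6 CPM against 2.28, 1.36 and 1.73 CPM. The fitted change was a rise of 3.02 ± 0.32 (edgeR adjusted p = 0.000156), 8.09-fold, and its OE libraries spread widely, from 8.83 to 19.0 CPM. CCDC142 overlaps MRPL53 over 1337 bases on the same strand and fell by 0.77 (26.3 against 44.8 CPM; edgeR adjusted p = 0.000801). The sum of both genes was 40.7, 39.0 and 42.5 CPM in OE and 47.4, 46.0 and 46.4 CPM in Vec, while the MRPL53 share of it was 46.7%, 22.6% and 36.7% in OE and 4.81%, 2.96% and 3.73% in Vec. Fitted as 1 gene, the sum fell by 0.19 ± 0.06 (edgeR adjusted p = 0.0218). The sum changed in the opposite direction to MRPL53 and by less. Whether the share reflects transcripts or the assignment of reads was not tested.

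**Figure D3:**
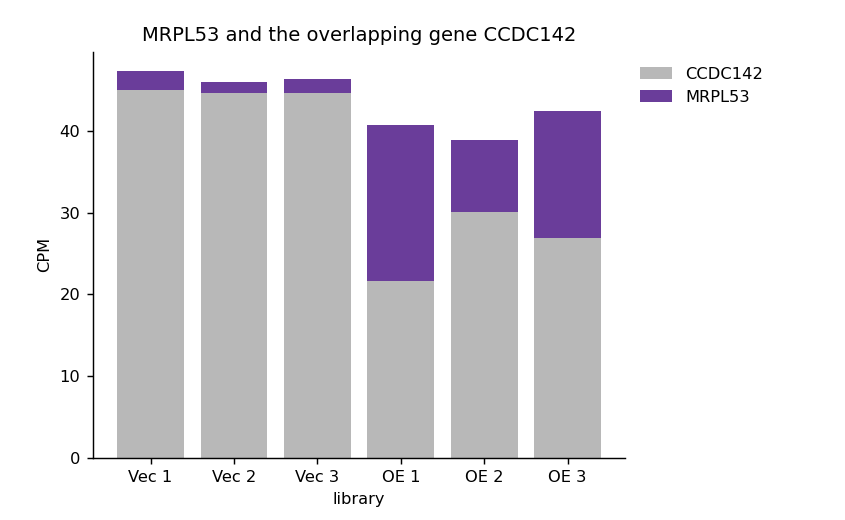
CPM of CCDC142 (grey) and MRPL53 (purple), stacked, in each library. The total is 39.0 to 42.5 in OE and 46.0 to 47.4 in Vec, while the MRPL53 segment grows from at most 2.28 in Vec to at least 8.83 in OE.

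The small subunit changed within a narrower range. MRPS2 (uS2m; chr9:135499984-135504673, plus strand), a core protein whose mutation causes a respiratory chain disorder, was at 51.5, 53.9 and 51.9 CPM in OE and 84.2, 95.6 and 81.4 CPM in Vec. It fell by 0.73 ± 0.07 (edgeR adjusted p = 8.57e-05), 1.66-fold lower, with every OE library far under every Vec library. MRPS9 (uS9m), a protein of the head of the subunit, was at 35.8, 36.9 and 35.1 CPM in OE and 52.9, 52.5 and 57.0 CPM in Vec, and fell by 0.59 ± 0.06 (edgeR adjusted p = 0.000106). MRPS35 (mS35), a mitochondria-specific protein, was at 55.3, 56.2 and 52.1 CPM in OE and 79.1, 75.8 and 80.0 CPM in Vec, and fell by 0.52 ± 0.05 (edgeR adjusted p = 0.000121). Both genes kept the groups apart.

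MRPS6 (bS6m), a platform protein, fell by 0.54 ± 0.06 to 25.4 ± 0.997 CPM (edgeR adjusted p = 0.000259). MRPS12 (uS12m), which lies at the decoding centre, fell by 0.50 ± 0.08 to 24.4 ± 0.882 CPM (edgeR adjusted p = 0.00114). MRPS7 (uS7m), which organises the head, fell by 0.31 ± 0.05 to 64.7 ± 1.87 CPM (edgeR adjusted p = 0.00209). The remaining 4 fallen small subunit genes, MRPS31, MRPS24, MRPS16 and MRPS5, changed by -0.26 to -0.15, and each lost its call in at least 1 other setting.

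Of the risen small subunit genes, MRPS25 (mS25) was the most abundant, at 212, 200 and 200.1 CPM in OE and 131, 177 and 143 CPM in Vec. It rose by 0.44 ± 0.10 (edgeR adjusted p = 0.00865), and Vec 2 was the Vec library nearest to OE. MRPS25 overlaps NR2C2 on the opposite strand over 11141 bases. NR2C2 was at -0.47 (58.9 against 81.6 CPM) and not called (edgeR adjusted p = 0.0827). Its estimated counts in Vec 1 to 3 were 5764, 4347 and 6194, lowest in Vec 2, where MRPS25 was highest. The part of shared reads in the MRPS25 values was not tested. MRPS10 (uS10m), a head protein, was at 51.2, 58.6 and 52.5 CPM in OE and 42.7, 40.4 and 42.2 CPM in Vec, and rose by 0.37 ± 0.07 (edgeR adjusted p = 0.00225). MRPS22 (mS22) rose by 0.23 ± 0.06 (edgeR adjusted p = 0.0165), a call lost in 6 of 16 other settings.

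The 3 genes that descend from 1 bacterial protein of the small subunit, MRPS18A, MRPS18B and MRPS18C, all rose. MRPS18A was at 49.99, 55.3 and 49.1 CPM in OE and 37.5, 39.1 and 36.5 CPM in Vec, and rose by 0.45 ± 0.07 (edgeR adjusted p = 0.000839). MRPS18B (mS40) was at 63.2, 62.6 and 60.5 CPM in OE and 52.8, 47.9 and 50.9 CPM in Vec, and rose by 0.30 ± 0.06 (edgeR adjusted p = 0.00288). MRPS18C (bS18m), the member that keeps the bacterial position, was at 25.2, 25.02 and 24.4 CPM in OE and 20.3, 20.1 and 18.9 CPM in Vec, and rose by 0.33 ± 0.07 (edgeR adjusted p = 0.00671). The groups were separate for each of these paralogues, and all 3 kept their calls in all 16 other settings, though MRPS18A and MRPS18B were at 0.27 and 0.18 with the GC and length trend removed. MRPS30 was at 65.6, 65.2 and 59.5 CPM in OE and 61.9, 65.4 and 68.1 CPM in Vec, with overlapping groups and a log2 fold change of -0.04 ± 0.06 (edgeR adjusted p = 0.653).

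Many members overlap another gene, and the strand setting of the counting is not given in the sources used here. Of the 38 members that overlap a coding gene on either strand in GENCODE 29, 10 rose and 10 fell. Of the 40 that do not, 4 rose (MRPL24, MRPL54, MRPS10 and MRPL16) and 16 fell. Among genes at the members' levels, 27.0% were higher and 33.2% lower. The split by overlap was not made for genes outside the family, so whether it is particular to the members was not tested. Among the risen, MRPL34 lies within ABHD8 on the opposite strand over 14235 bases, and ABHD8 rose by 0.85. MRPS18C overlaps ABRAXAS1 (0.40, called higher) over 10219 bases, MRPL2, whose own call was lost in 12 of 16 other settings, overlaps KLC4 (0.38, called higher) and MRPS22 overlaps COPB2 (0.28, called higher). MRPS18B and MRPL43 rose while an opposite-strand gene fell, PPP1R10 by 0.37 and TWNK by 0.62. TWNK overlaps MRPL43 over only 149 bases. SEMA4G, on the same strand as TWNK, overlaps MRPL43 over 16354 bases and was at 0.25, not called (edgeR adjusted p = 0.0979). Among the fallen, MRPS6 shares a strand with SLC5A3 (-0.46, called lower), and MRPS7 fell beside MIF4GD (0.44, called higher). The part of shared reads in these values was not tested. Rows named as pseudogenes of members held little signal: 36 members had pseudogene rows under their own symbol, 79 rows in all, summing to 3.36 CPM in Vec and 5.28 CPM in OE, and for no member did they reach 5% of the parent gene in Vec.

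The neighbours of some members moved too. For each member the median log2 fold change of the 40 nearest expressed coding genes was taken, other members left out. For 11 members this median was -0.30 or lower; of these 8 fell (MRPS2, MRPL41 and MRPL50 on chromosome 9, MRPS9, MRPL35 and MRPS5 on chromosome 2, MRPL23 and MRPL15) and none rose. Of the 1260 expressed coding genes outside the family with such neighbours, 60.3% fell and 10.5% rose. For no member was it 0.30 or higher. Of the other 67 members, 14 rose and 18 fell, beside 27.1% and 31.6% of the 10117 coding genes with neighbours within 0.30 of 0. MRPS2 stood at -0.73 beside a neighbourhood median of -0.52, and MRPS9 at -0.59 beside -0.51, whereas MRPL1 stood at -1.05 beside 0.01 and MRPS35 at -0.52 beside 0.11. Over the 78 members, Pearson's r between member and neighbourhood was 0.20 (0.36 without MRPL53) and Spearman's rho 0.32, a description over genes that share the same 6 libraries. Of the 21 chromosomes with members, 3 were picked out after their counts were seen. All 3 members on chromosome 9 fell, where 59.0% of expressed coding genes fell and 8.99% rose; 4 of 6 on chromosome 6 rose and 2 fell, beside 31.2% and 31.6%; and none of 5 on chromosome 5 was called, beside 55.6%. The part of the neighbourhood in these values was not tested.

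**Figure D4:**
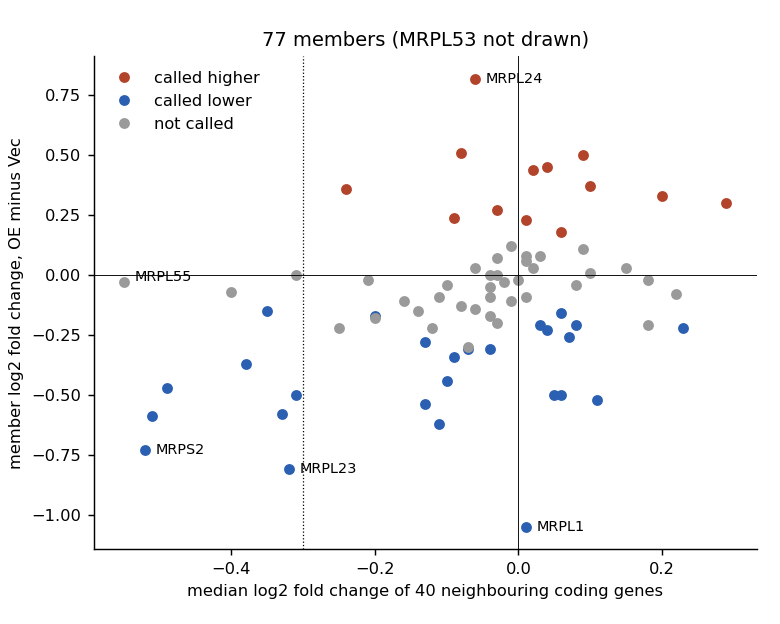
Log2 fold change of each of 77 members (y axis; MRPL53 at 3.02 is off scale and not drawn) against the median log2 fold change of its 40 nearest expressed coding genes (x axis), colored by call. Left of the dotted line at -0.3 lie 11 members, 8 called lower and none called higher; MRPL1 and MRPL24 changed most beside neighbourhoods near 0.

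Some members share a short promoter region with a gene on the other strand. A coding partner starting within 1000 bases in the opposite direction was found for 16 members (20.5%), against 9.34% of 13890 tested coding genes. MRPL46 and MRPS11, 1 of each subunit, start 34 bases apart and neither was called (-0.21 and -0.02). In 4 pairs both genes were called. MRPL18 fell by 0.31 beside TCP1, a chaperonin subunit gene, which fell by 1.04. MRPL50 fell by 0.37 beside ZNF189 at -0.34, and MRPL54 rose by 0.51 beside APBA3 at 0.54. In the fourth pair, MRPL27 fell by 0.44 and EME1, whose start lies 6 bases away, rose by 0.83. Only the partner was called for MRPL47 (NDUFB5 at 0.37), MRPL36 (NDUFS6 at -0.25) and MRPL10 (LRRC46 at 0.73). Only the member was called for MRPS18C, MRPL41 and MRPL52. How often both genes of such pairs are called outside the family was not counted.

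Summed over members, the small subunit genes made 1566, 1601 and 1563 CPM in OE and 1588, 1719 and 1593 CPM in Vec, and the large subunit genes 2439, 2472 and 2417 CPM in OE and 2614, 2736 and 2601 CPM in Vec. The groups overlapped for the small subunit and were separate for the large subunit. The OE to Vec ratio was 0.965 for the small and 0.922 for the large subunit; with total counts in place of TMM it was 1.04 and 0.989. The small subunit share of all member CPM does not depend on library scaling and was 39.2% ± 0.118 in OE and 38.1% ± 0.410 in Vec (SD, n = 3), a difference of 1.11 percentage points. It rested on 1 gene, MRPS25, which overlaps NR2C2 on the opposite strand: without MRPS25 it was 36.0% ± 0.250 and 35.9% ± 0.137.

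The 2 mitochondrial rRNAs, which these proteins surround, moved apart. MT-RNR1, the rRNA of the small subunit, was at 650, 636 and 632 CPM in OE and 845, 940 and 863 CPM in Vec, and fell by 0.47 ± 0.05 (edgeR adjusted p = 0.000155). MT-RNR2, the rRNA of the large subunit, was at 5626, 5695 and 5294 CPM in OE and 4523, 4340 and 4678 CPM in Vec, and rose by 0.30 ± 0.04 (edgeR adjusted p = 0.000949). The ratio of MT-RNR2 to MT-RNR1 was 8.66 ± 0.285 in OE and 5.13 ± 0.444 in Vec (SD, n = 3), without overlap. Among the protein genes, the large subunit median lay 0.09 under that of the small subunit. The labels do not say how cytosolic rRNA was removed.

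**Figure D5:**
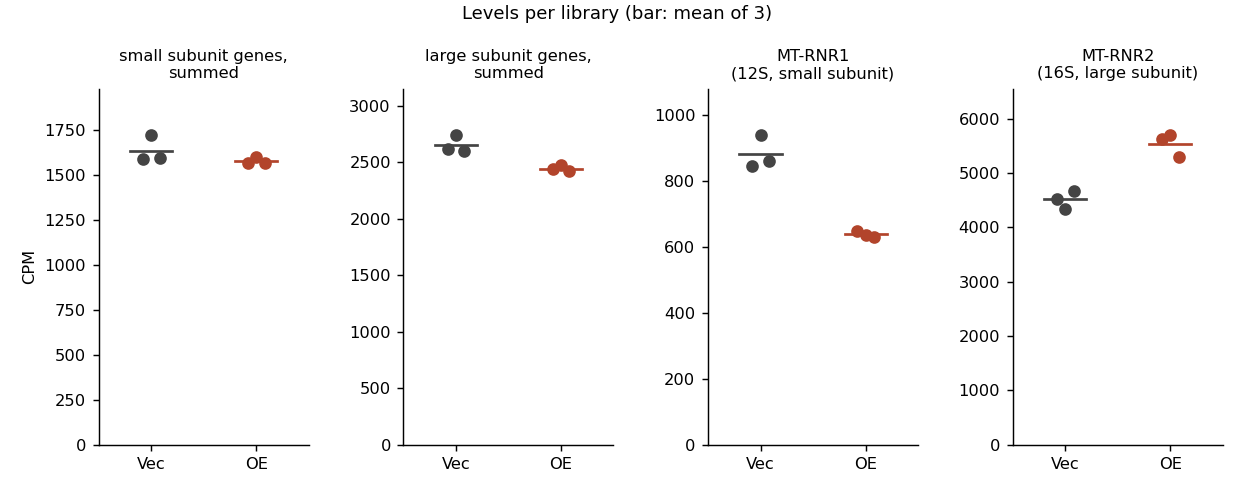
Summed CPM of small and large subunit genes and CPM of the mitochondrial rRNAs MT-RNR1 and MT-RNR2 in each library (points; bars are means of 3, axes from 0). The protein gene sums differ little, MT-RNR1 is lower and MT-RNR2 higher in every OE library.

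Other genes of mitochondrial translation also moved both ways, as did genes at the members' levels, of which 27.0% were higher and 33.2% lower. Of 6 genes with other symbols that were listed for the mitochondrial ribosome, CHCHD1 rose by 0.26 (edgeR adjusted p = 0.0210, lost in 6 of 16 other settings). GADD45GIP1 fell by 0.42 and PTCD3 by 0.22 (PTCD3 not called with total counts). DAP3, AURKAIP1 and NDUFAB1 did not pass. Of 27 assembly factors, 4 rose and 11 fell (median -0.10): the GTPase GTPBP10 rose by 0.44 and RCC1L by 1.00, while C1QBP, a matrix protein needed for translation, fell by 0.94 (175 against 337 CPM) and the pseudouridine synthase TRUB2 by 0.77. Of 18 translation factors, 4 rose and 4 fell (median 0.06), and among them the elongation factor TUFM rose by 0.34, the release factor methylase HEMK1 rose by 0.82, the recycling factor MRRF fell by 0.48 and the mRNA-binding LRPPRC fell by 0.31. Of 13 mRNAs encoded by mitochondrial DNA, 8 rose and 1 fell (median 0.30), beside 22.6% and 23.4% of all genes. Cytosolic ribosomal protein genes, the counterparts outside the mitochondrion, had 14 of 83 higher and 27 lower (median -0.07), beside 22.6% and 23.4% of all genes. The median level was 427 CPM for these genes and 2619.5 CPM for the mRNAs of mitochondrial DNA, against 8.52 CPM over all genes. No share was taken over other genes at such high levels.

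Genes for mitochondrial transcription and DNA upkeep had 2 of 12 higher and 6 lower (median -0.34), beside 27.0% and 33.2% of genes at the members' levels. TFAM, which packages mitochondrial DNA and opens its promoters, fell by 0.43 ± 0.08 (78.8 ± 7.95 against 106 ± 6.998 CPM; edgeR adjusted p = 0.00315), TFB2M by 0.90 and TOP1MT by 0.39, while POLG2 rose by 0.43 and MTERF1 by 0.59. Of 11 tested regulators of nuclear genes for mitochondria, 4 rose and 6 fell (median -0.31), beside the same 27.0% and 33.2%. NRF1 was at -0.07 ± 0.08 (edgeR adjusted p = 0.512). GABPA, the DNA-binding part of GABP, rose by 0.23 ± 0.06 (edgeR adjusted p = 0.0149; not called without OE replicate 1 or 2, at 0.0560 and 0.0644), whereas GABPB1, the other part of GABP, fell by 0.31 ± 0.10 (29.5 against 36.7 CPM; edgeR adjusted p = 0.0289), a call lost in 5 of 16 other settings; it was named after its values were seen. YY1 fell by 0.73 and ESRRA by 0.83, and TFEB rose by 0.50 and ATF5, a factor of the mitochondrial unfolded protein response, by 1.62. MYC was at 303, 303 and 304 CPM in OE and 381, 620.5 and 381 CPM in Vec; it fell by 0.60 ± 0.17 (edgeR adjusted p = 0.0216), was high in Vec 2 and stood at -0.34 without that library, and was not called when any 1 OE replicate was left out (edgeR adjusted p from 0.0698 to 0.0729). Of 10 protease and chaperone genes, SPG7 and LONP1 rose by 1.07 and 0.83, whereas the chaperonin genes HSPD1 and HSPE1, which share a promoter region, fell by 1.37 and 1.60 (479 against 1238 CPM and 31.3 against 94.6 CPM).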

How the data were processed

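Per the labels, RNA was extracted as total RNA and made into TruSeq libraries. The authors deposited 1 table of whole-number expected counts (estimated counts) per gene symbol and library; the tools listed in the submitters' processing notes are DESeq2, StringTie, STAR (2.7.10a) and fastp (0.23.2), and the build is hg38. Annotation release and strand are not given in the sources used here. What 1 read pair adds to a deposited count is unsettled (a value of 4 is more frequent than 3 in all 6 columns), so no counting interval is given, and values divided by 4 were tried.

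From these values edgeR 4.0.16 (R 4.3.3; filterByExpr, TMM, quasi-likelihood F test, Benjamini-Hochberg adjusted p under 0.05) was fitted on the 6 libraries and 21055 genes, and was tested on simulated data. CPM used TMM library sizes. Group means carry SDs over 3 libraries. Positions, overlaps and lengths are from GENCODE 29, which matched 40175 symbols and all 78 members; promoters are from RefSeq.

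The members and lists were chosen with earlier results of these data known. Named genes are, per subunit, up to 6 called members of most negative and 4 of most positive change with 100 or more estimated counts on average and separate groups, the 3 highest per kilobase, the MRPS18 paralogues and MRPS30, up to 2 risen and 2 fallen genes of each related list by adjusted p, and 7 set genes; others, such as MRPL16, MRPL41 and overlapping or paired genes, were named after their values were seen. Alternatives were DESeq2 1.42.0, limma-voom (limma 3.58.1), other scalings and filters, a replicate block, and each library left out.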

Additional observations from a re-analysis of the deposited data

How the results depend on the processing

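Of the 40 members called, 26 were called in each of 16 other settings (10 higher, 16 lower), 13 lost the call in at least 1, and MRPL41 changed sign, at 0.01 with the GC and length trend removed (edgeR adjusted p = 0.9301). That setting gave medians of -0.08 (small) and -0.19 (large subunit), with 11 members higher and 33 lower. Total counts in place of TMM, chosen after seeing the data, gave medians of 0.09 and -0.01, summed ratios of 1.04 and 0.989, and 6 small subunit genes lower instead of 10; upper-quartile factors gave medians of 0.03 and -0.06. The cause of these shifts was not tested beyond the move of the median of all genes, 0.12 with total counts. Leaving out 1 library at a time gave medians of -0.07 to 0.00 and -0.14 to -0.09, and 31 to 43 members called. Also chosen after seeing the data, leaving out members that overlap a coding gene, and so testing fewer, gave 20 called (4 higher, 16 lower), leaving out MRPS25 gave a share difference of 0.103 percentage points, and MRPL53 summed with CCDC142 stood at -0.19. Same-numbered libraries did not deviate together (correlations of -0.035, 0.022 and 0.051), so the numbers were not taken as pairs; a replicate block gave 36 members called, 13 higher and 23 lower. With 3 libraries per group, small changes such as those of MRPL17 (-0.22, edgeR adjusted p = 0.05003) and MRPL2 (0.18, 0.0498) lie at the threshold.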
